A study of Mus musculus with 6 samples.

Results

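The 1700 series is a set of mouse genes that still carry the number of the RIKEN cDNA clone from which they were first described, and 399 of them were followed here in whole testis of Control and MES-exposed mice. Members were chosen by their name, which begins with 1700, and selected on their level, a mean of at least 1 RPKM over all 6 libraries. RPKM is the number of reads of a gene per kilobase of its exons and scaled to the reads of the library. Of 38715 genes in the table, 505 had such a name and 106 of those were under the threshold. The level that chose the members is therefore given only as a description. The rule does not name the difference between the groups, but the set was proposed with earlier results of these data known and is not independent of them.

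RNA-seq was run on 6 testis libraries, 3 titled Control and 3 titled Middle, each made from 2400 ng of total RNA. The series title speaks of exposure to MES in early life and the design text of a control and a MES-exposed group. Middle was taken for the exposed group, as no other title is present. The labels state neither strain, age and dose nor how many animals stand behind a library, and p-values therefore measure the spread between these libraries, which may be technical.

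RIKEN numbered its mouse cDNA clones by library plate, and the numbers beginning with 1700 are known for clones from adult male testis. Germ cells, above all spermatocytes and spermatids, transcribe an unusually large part of the genome, including many long non-coding RNAs, and many such transcripts were first seen in testis cDNA. Genes that later gained a function were usually renamed, so those that keep the clone number are mostly genes whose role is still unknown. Non-coding genes of this kind often start close to a gene on the opposite strand, from a promoter region that both share.

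Summed over genes, a library had 38820385 to 58389391 reads. Middle replicate 1 stood apart: it lay farthest from the centre on the first principal component, which held 50.1% of the variance. Reads of members were 1.68% to 1.81% of all reads in Control and 1.6% to 1.66% in Middle. A member had a median of 314 to 437 reads in a library, and the lowest had 10. Markers of testis cells were present: all 14 round and all 14 elongating spermatid markers were tested, and no marker in the table was at 0 in every library. Of 6 epididymis markers, 1 reached the level to be tested.

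By gene type, 303 members were long or other non-coding RNA genes, 70 were protein-coding, 14 were pseudogenes, and the type of 12 was not given by RefSeq or GENCODE. They lay on all 21 chromosomes, with 9 on X and 2 on Y. Their exons were short in sum, with a median of 869 bases against 2723 for all tested genes, and 58 had 1 exon block. The median level of a member was 7.81 RPKM, and members ran from 1.002 to 1334 RPKM. Protein-coding members had a median level of 42.3 RPKM, and non-coding members one of 5.30 RPKM. The pseudogene members had a median of 56.0 RPKM.

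Of the 12 members with the smallest p among those lower in Middle, 6 non-coding genes had a RefSeq start region. The 3 of these with the smallest p are shown, and 1700022A22Rik as the only other one that holds a motif searched. Each is 300 bases of RefSeq promoter sequence (build GRCm38.p6), from 250 bases before to 50 after the start, written 5′ to 3′ on the strand of the gene. Capitals mark a match to 1 of 4 short motifs on either strand: TGACG, a core of the cAMP response element, GTTGCC, a core of the X-box bound by RFX proteins, CAGTTG, a core bound by MYB proteins, and TATAAA, the TATA box.
1700083H02Rik, chr12:71384159-71384458, minus strand: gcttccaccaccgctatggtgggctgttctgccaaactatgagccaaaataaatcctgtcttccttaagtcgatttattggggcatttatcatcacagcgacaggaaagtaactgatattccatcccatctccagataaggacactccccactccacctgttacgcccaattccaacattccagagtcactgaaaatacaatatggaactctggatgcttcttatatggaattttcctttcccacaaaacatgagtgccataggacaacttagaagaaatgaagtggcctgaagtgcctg
1700061I17Rik, chr3:117077716-117078015, minus strand: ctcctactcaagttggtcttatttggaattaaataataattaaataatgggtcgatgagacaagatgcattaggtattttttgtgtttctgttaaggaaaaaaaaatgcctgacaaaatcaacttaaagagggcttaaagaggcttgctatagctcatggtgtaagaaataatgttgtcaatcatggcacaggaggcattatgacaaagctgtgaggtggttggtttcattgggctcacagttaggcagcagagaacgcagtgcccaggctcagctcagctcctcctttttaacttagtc
1700029N11Rik, chr13:44439477-44439776, plus strand: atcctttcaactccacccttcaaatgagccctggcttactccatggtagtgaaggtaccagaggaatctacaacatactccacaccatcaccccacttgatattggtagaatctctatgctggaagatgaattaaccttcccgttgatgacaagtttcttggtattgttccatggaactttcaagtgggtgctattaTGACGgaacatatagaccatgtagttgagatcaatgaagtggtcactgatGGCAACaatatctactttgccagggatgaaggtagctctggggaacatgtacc
1700022A22Rik, chr15:46324335-46324634, plus strand: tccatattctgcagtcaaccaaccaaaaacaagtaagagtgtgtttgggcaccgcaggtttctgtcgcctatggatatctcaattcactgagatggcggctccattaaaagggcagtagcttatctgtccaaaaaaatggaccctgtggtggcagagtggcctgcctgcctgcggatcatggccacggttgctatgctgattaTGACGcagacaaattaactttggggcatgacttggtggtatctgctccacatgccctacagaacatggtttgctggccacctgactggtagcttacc
1700083H02Rik and 1700061I17Rik hold none of the 4 motifs, 1700029N11Rik holds TGACG and, as its reverse complement, GTTGCC, and 1700022A22Rik holds TGACG.

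A RefSeq promoter was found for 254 members, with 281 windows in all. GTTGCC was in 21% of the member windows and in 12.5% of all 32851 windows. CAGTTG was in 21% and 13.7%, TGACG in 21% and 20.8%, and TATAAA in 9.61% and 13.6%. In the 66 windows of members whose Middle libraries all lay below the Control libraries, GTTGCC was in 25.8%, CAGTTG in 15.2%, TGACG in 22.7% and TATAAA in 12.1%. CAGTTG and GTTGCC can overlap, since they share the letters GTTG. A match is a description of the letters and no sign of binding.

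The comparison of Middle with Control asked whether transcripts of these testis genes differed after exposure. No member passed the test over all genes, but members as a set lay lower in Middle, with a narrow gap between libraries. The median deviation of members from their mean over all libraries (log2) was 0.081, -0.014 and 0.072 in Control replicates 1 to 3. In Middle replicates 1 to 3 it was -0.052, -0.061 and -0.019. Control replicate 2 lay close to Middle replicate 3 and apart from Control replicates 1 and 3. The counts that follow are over genes, which share these libraries. Of 399 members, 280 had a log2 fold change below 0 and 119 above, with a median of -0.09 (log2 scale of RPKM + 1). Of all 15040 tested genes, 44.1% lay below 0, with a median of 0.03. In whole testis, fewer cells of a type and less RNA per cell cannot be told apart.

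The test called 0 of 399 members at an adjusted p under 0.05 (limma), against 0.0532% of all tested genes. The smallest adjusted p of a member was 0.0896 (limma). At an unadjusted p under 0.05, 81 members (20.3%) were lower in Middle, where 9.02% of all tested genes were, and 18 members (4.51%) were higher, where 11.7% of all tested genes were. The counts with limma-voom on the recovered reads were 82 lower and 18 higher, again with 0 called. Each Middle library was under each Control library for 90 members (22.6%), against 11.4% of all tested genes. The opposite order held for 22 members (5.51%), against 17.9%. Without Middle replicate 1, the library that stood apart, 276 members lay below 0 and the median was -0.09.

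**Figure D1:**
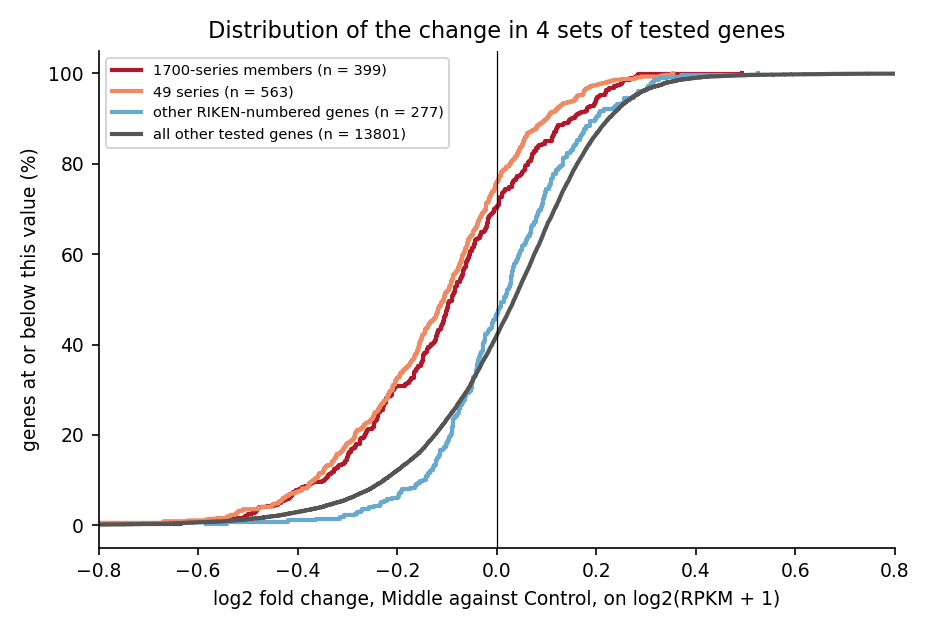
Cumulative share of genes (vertical axis, %) by log2 fold change of Middle against Control (horizontal axis, log2 of RPKM + 1) for the 399 members, 563 tested genes of the 49 series, 277 other RIKEN-numbered genes and the other tested genes. The curves of the members and of the 49 series lie to the left, with 70.2% and 75.8% of genes below 0.

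Genes whose clone number begins with 49, such as 4933427I04Rik, are also known from RIKEN testis libraries, and they are given beside the members. Of 563 tested genes of this 49 series 427 lay below 0, with a median of -0.11. Of 277 other RIKEN-numbered genes 129 lay below 0, with a median of 0.01. Members lay lower than genes without a RIKEN number in both main gene types. Long non-coding members had a median of -0.10 (217 of 303 below 0), and long non-coding genes without a RIKEN number one of -0.04 (58.6% of 1662 below 0). Protein-coding members had a median of -0.05 (43 of 70 below 0), and protein-coding genes without a RIKEN number one of 0.05 (36.9% of 10327 below 0). These are descriptions of lists, and no test compared them.

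The median log2 fold change of members did not follow their level, but the log2(RPKM + 1) scale understates the change of low genes. Members with a mean of 50 RPKM or more had a median of -0.11 (42 of 57 below 0), those of 10 to 50 RPKM -0.06 (73 of 117), those of 2 to 10 RPKM -0.11 (129 of 171) and those under 2 RPKM -0.08 (36 of 54). Of the 57 members at 50 RPKM or more, 25 had every Middle library under every Control library and 1 the opposite order. At 10 to 50 RPKM these counts were 26 and 12 of 117, at 2 to 10 RPKM 33 and 7 of 171, and under 2 RPKM 6 and 2 of 54. From the highest level to the lowest, the share with every Middle library lower was 43.9%, 22.2%, 19.3% and 11.1%. Over all tested genes at any level, 11.4% had this order and 17.9% the opposite one. No test compared the levels.

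**Figure D2:**
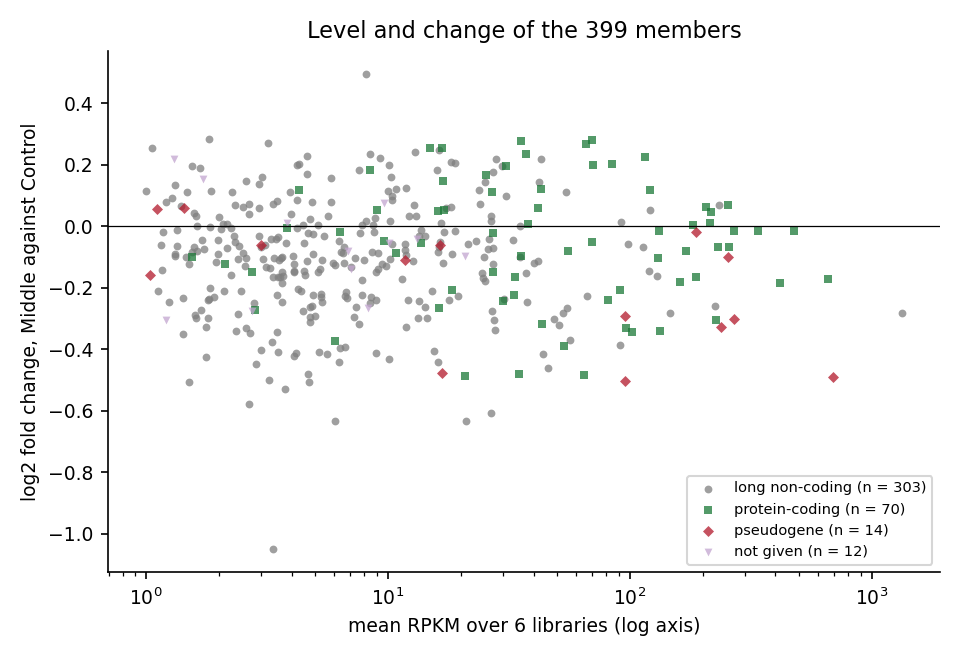
Mean RPKM over the 6 libraries (horizontal log axis) against log2 fold change of Middle against Control (vertical axis) for each member, by gene type. Points lie below 0 more often than above at every level, and the most abundant member is at 1334 RPKM.

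Among members lower in Middle, 1700073E17Rik (chromosome 6, 145333322 to 145347905, GRCm39), a transcribed pseudogene, had the smallest p. It was at 20.8, 19.0 and 19.3 RPKM in Control replicates 1 to 3 and at 13.4, 13.9 and 14.3 in Middle replicates 1 to 3. The Middle libraries lay together and well below the Control libraries, a ratio of 0.703 and a log2 fold change of -0.48 (SE 0.06; adjusted p = 0.0896, limma). The non-coding gene 1700083H02Rik (chromosome 12, 71429928 to 71430982) was at 6.52, 7.58 and 8.57 RPKM in Control and at 4.34, 4.71 and 4.42 in Middle. Control spread more than Middle, without overlap, and the log2 fold change was -0.63 (SE 0.10; adjusted p = 0.108, limma).

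Other non-coding members showed the same order of the groups. 1700061I17Rik (chromosome 3, 116854171 to 116871414) was at 2.06, 1.70 and 2.05 RPKM in Control and at 1.06, 1.03 and 1.11 in Middle, a ratio of 0.550. Its Middle libraries lay close together, with an SD of 0.04 RPKM (n = 3). 1700029N11Rik (chromosome 13, 44593188 to 44622506) was at 5.79, 5.28 and 5.72 RPKM in Control and at 3.22, 3.76 and 4.25 in Middle. Of its exon bases, 14.6% are shared with other genes, a share that counts every overlapping gene. The largest part falls to Gm27036 on the other strand, which was at 3.95 ± 0.43 and 2.39 ± 0.28 RPKM (SD, n = 3 each). Values of such pairs are uncertain, since the sources used here do not give the strand setting of the counting.

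The remaining non-coding members of the 12 ranged widely in level. 1700021F13Rik (chromosome 5, 119943392 to 119945934) was at 37.3, 29.6 and 30.6 RPKM in Control and at 18.6, 24.4 and 20.1 in Middle, a log2 fold change of -0.61 (SE 0.12). 1700112J05Rik (chromosome 5, 77154296 to 77166710) was at 51.3, 46.3 and 53.4 RPKM in Control and at 34.1, 41.5 and 36.8 in Middle. It shares 33% of its exon bases with other genes, the largest part with Arl9, a gene of the ARF GTPase family. Arl9 was at 65.8 ± 5.70 and 49.5 ± 6.41 RPKM (SD, n = 3 each). The 2 values may rest in part on the same reads. 1700054O19Rik (7.65 ± 0.13 and 5.60 ± 0.53 RPKM), 1700119I11Rik (4.14 ± 0.30 and 2.87 ± 0.30), 1700022A22Rik (3.86 ± 0.17 and 2.75 ± 0.34) and 1700003L19Rik (1.71 ± 0.08 and 1.12 ± 0.09; SD, n = 3 each, Control then Middle) also had no overlap between the groups. 1700119I11Rik shares 20.7% of its exon bases with other genes, the largest part with the mitochondrial creatine kinase gene Ckmt2. Ckmt2 was at 24.5 ± 1.42 and 17.9 ± 1.77 RPKM (SD, n = 3 each).

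The last of these 12 were an abundant pseudogene and a protein-coding gene. 1700049L16Rik (chromosome 10, 71815922 to 71816464) was at 280.9, 258.6 and 257.9 RPKM in Control and at 198.7, 214.4 and 222.5 in Middle, a ratio of 0.797. 1700018B08Rik (chromosome 8, 122257519 to 122271059) was at 116, 101.5 and 104 RPKM in Control and at 82.8, 88.8 and 82.8 in Middle, a ratio of 0.791. It shares 4.02% of its exon bases with other genes, the largest part with Gm27045. Each of the 12 had every Middle library below every Control library, which 22.6% of the members and 11.4% of all tested genes had. The adjusted p of these 12 was 0.0896 to 0.178 (limma), and they were taken for their small p, so their separation supports nothing further.

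**Figure D3:**
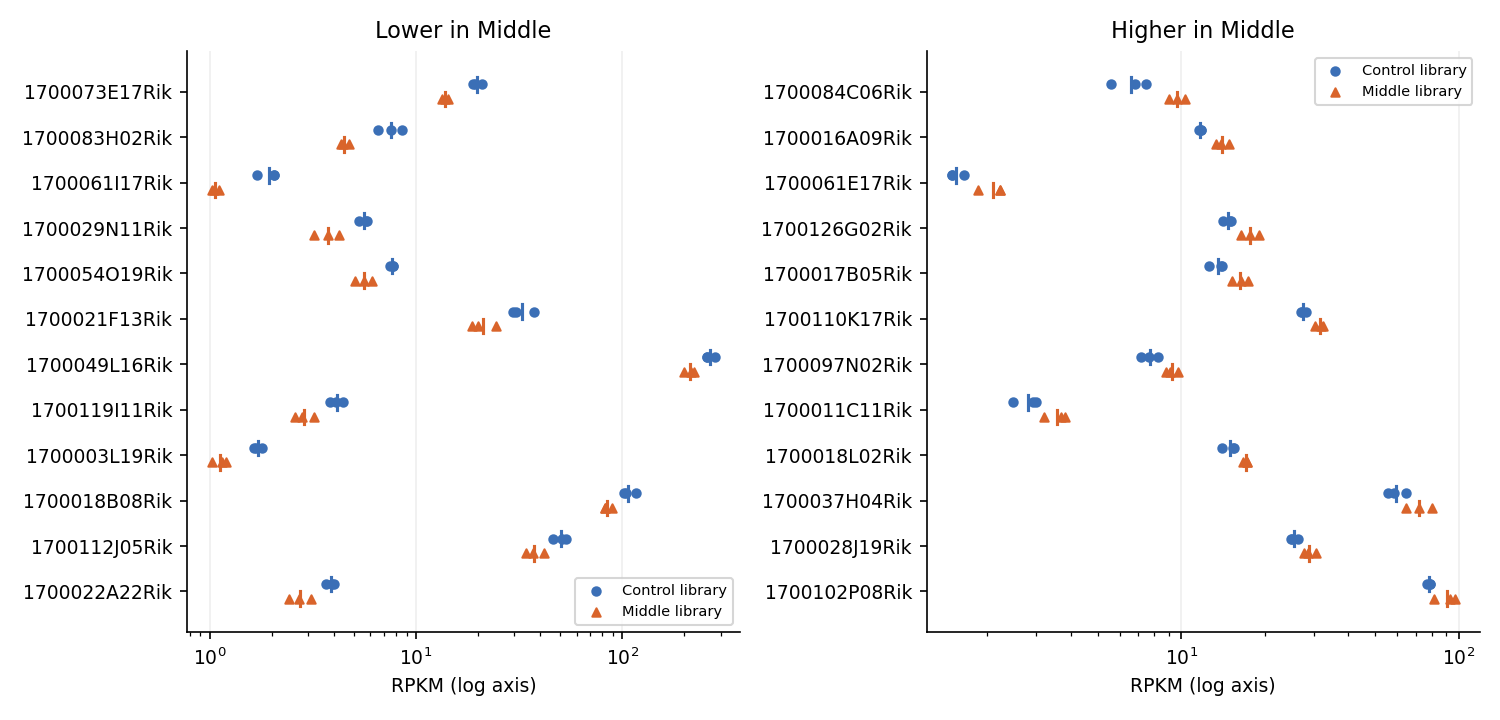
RPKM on a log axis in each Control library (circles) and each Middle library (triangles) for the 12 members with the smallest p among those lower and the 12 among those higher in Middle, with short lines at the group means. The groups do not overlap in the left panel, and in the right panel they overlap for 1700037H04Rik alone.

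The most abundant member was 1700027A15Rik (chromosome 1, 73024003 to 73064666), a non-coding gene. Of its exon bases, 2.87% are shared with other genes, the largest part with Tnp1, the gene of a transition protein that replaces histones in spermatids. 1700027A15Rik was at 1566, 1266 and 1566 RPKM in Control and at 1105, 1197 and 1301 in Middle. Control replicate 2 lay below Middle replicate 3, so the groups overlapped (log2 fold change -0.28, SE 0.10; adjusted p = 0.198, limma). Tnp1 itself was at 4685 ± 633 and 3823 ± 193 RPKM (SD, n = 3 each), a log2 fold change of -0.29 (SE 0.10). The log2 fold changes of the member and of Tnp1 were alike in size, and the shared bases can hold the same reads.

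Pseudogenes among the abundant members, and 1 less abundant one, are linked by near-identical transcripts. 1700019M22Rik (chromosome 12, 96013541 to 96013894) was at 865.4, 702.6 and 853.1 RPKM in Control and at 476.9, 655.5 and 596.0 in Middle, a ratio of 0.714. 1700084M14Rik (X, 90618816 to 90619517) was at 113.8, 103.2 and 119 RPKM in Control and at 61.4, 95.3 and 83.0 in Middle, and 1700003E24Rik (X, 92199760 to 92200479) at 301.0, 277.5 and 309.2 and at 205.9, 260.1 and 256.8. In each of the 3, Middle replicate 1 was lowest and no Middle library reached the Control libraries. The transcript of 1700019M22Rik matches that of 1700084M14Rik at 92.0% over 91.0% of its length, and those of the other 2 match BC061195 at 95.5% and 99.8%. Reads could be split among these copies, so the 3 are 1 uncertain result and not 3 separate ones. 1700084M14Rik is named here after its values were seen.

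The 5 abundant protein-coding members had ratios of 0.879 to 0.994. 1700029H14Rik (chromosome 8, 13600733 to 13612461) was at 722.4, 688.4 and 695.3 RPKM in Control and at 637.6, 636.1 and 595.4 in Middle, a ratio of 0.888 without overlap. 1700016K19Rik (chromosome 11, 75890738 to 75894395), which RefSeq also calls Liat1, a partner of the arginyltransferase ATE1, was at 483.1, 422.4 and 430.1 RPKM in Control and at 408.1, 396.0 and 370.3 in Middle. The highest Middle library was below the lowest Control library in both, by more than the span of the Control libraries for 1700029H14Rik and by less for 1700016K19Rik (adjusted p = 0.186 and 0.22, limma).

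The groups overlapped for the other 3 abundant protein-coding members, and the direction of 1700010I14Rik and 1700003F12Rik turned when single libraries were left out. The Control mean of 1700010I14Rik was 481.2 ± 11.8 RPKM and its Middle mean 475.8 ± 17 (SD, n = 3 each; log2 fold change -0.02, SE 0.06). 1700029F12Rik was at 270.7 ± 2.92 and 267.5 ± 4.84 RPKM (SD, n = 3 each), the tightest of the 8 most abundant members. 1700003F12Rik shares 7.28% of its exon bases with other genes, the largest part with Necab3. This member was at 339.5 ± 15.6 and 337.6 ± 47.9 RPKM (SD, n = 3 each), with Middle replicate 1 alone above Control, at 392.8. Its log2 fold change was -0.02, and -0.13 without the GC trend.

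Members higher in Middle were fewer. Of the 12 with the smallest p among them, 8 overlapped the exons of another gene, against 4 of the 12 lower ones and 111 of all 399 members. The largest difference among the 12 was that of 1700084C06Rik (chromosome 9, 21003051 to 21039689), at 6.83, 7.44 and 5.56 RPKM in Control and at 9.04, 9.69 and 10.3 in Middle (log2 fold change 0.49, SE 0.10; adjusted p = 0.178, limma). It shares 99.5% of its exon bases with other genes, the largest part with Tyk2, a Janus kinase gene. Without strand, reads of the shared bases cannot be told apart. Tyk2 was at 1.48 ± 0.08 and 1.82 ± 0.13 RPKM (SD, n = 3 each). 1700061E17Rik shares 54.1% with other genes, the largest part with Rtp3, and was at 1.55 ± 0.09 and 2.1 ± 0.21 RPKM (SD, n = 3 each).

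Higher members with smaller shared parts were of middle level. 1700016A09Rik (chromosome 8, 121263631 to 121264465) was at 11.8, 11.8 and 11.6 RPKM in Control and at 14.8, 13.4 and 13.9 in Middle. Its log2 fold change was 0.24, and 0.13 once the trend with GC content was taken out of each library. 1700126G02Rik was at 14.7 ± 0.55 and 17.7 ± 1.26 RPKM, and 1700097N02Rik at 7.69 ± 0.55 and 9.23 ± 0.49 (SD, n = 3 each). 1700126G02Rik shares 27.7% of its exon bases with other genes, the largest part with the ethanolamine kinase gene Etnk1. 1700097N02Rik shares 35.1%, the largest part with the axonemal dynein gene Dnah8. Dnah8 was at 32.5 ± 2.58 and 36.0 ± 0.36 RPKM (SD, n = 3 each). The log2 fold change of 1700097N02Rik was 0.16 without the GC trend and 0.24 with it. Like values were found for 1700110K17Rik (27.4 ± 0.64 and 31.6 ± 1.09 RPKM), 1700018L02Rik (14.9 ± 0.77 and 17.1 ± 0.32) and 1700028J19Rik (25.4 ± 0.76 and 28.9 ± 1.51; SD, n = 3 each).

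The higher members without a shared exon base were 3 protein-coding genes and 1700011C11Rik. 1700102P08Rik (chromosome 9, 108270004 to 108288133), a gene reported to be needed for male fertility in mice, was at 77.0, 78.6 and 79.0 RPKM in Control and at 96.5, 81.5 and 92.9 in Middle. The SD was 1.04 RPKM in Control and 7.79 in Middle (n = 3 each), and the ratio was 1.15. 1700017B05Rik was at 13.5 ± 0.79 and 16.3 ± 1.08 RPKM, and 1700037H04Rik at 59.5 ± 4.66 and 72.0 ± 7.70 with overlap (SD, n = 3 each). For 1700017B05Rik the log2 fold change of 0.25 was 0.17 without the GC trend. 1700011C11Rik, a non-coding gene, was at 2.80 ± 0.29 and 3.57 ± 0.33 RPKM (SD, n = 3 each). Without the GC trend the log2 fold change rose from 0.20 to 0.22 for 1700102P08Rik and from 0.27 to 0.30 for 1700011C11Rik. It shrank for the rest of the 12 higher members. The adjusted p of the 12 higher members was 0.178 to 0.2 (limma).

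Over all members, the median change (log2) was -0.05 where exons overlapped another gene (69 of 111 below 0) and -0.11 where they did not (211 of 288 below 0). Of the 111, 103 overlapped a gene on the other strand, and 13 shared over 50% of their exon bases. For the 93 whose overlapping gene was tested, the rank correlation of the 2 log2 fold changes over pairs was 0.722. Such pairs can hold the same reads.

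A start on the opposite strand within 1000 bases was found for 76 members (19.0%). For the 43 pairs with both genes tested and no exon bases shared by the member, both lay below 0 in 19, both above in 9 and they lay on opposite sides in 15 (rank correlation 0.348 over pairs, which share libraries). The pair 1700121C08Rik and 4933427I04Rik, whose starts lie 166 bases apart, is an example: the member had means of 7.21 ± 0.44 RPKM (Control) and 6.05 ± 0.89 (Middle), with overlap, and its partner 27.0 ± 1.5 and 21.2 ± 1.7 (SD, n = 3 each). 1700022H01Rik starts 44 bases from Sar1a, a GTPase gene of vesicle transport. It was at 66.6, 53.8 and 60.8 RPKM in Control and at 48.8, 51.0 and 49.6 in Middle, while Sar1a was at 6.80 ± 0.19 and 7.08 ± 0.39 (SD, n = 3 each). These 2 pairs were chosen after their values were seen, 1 in which both genes lay lower and 1 in which they differed in direction.

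**Figure D4:**
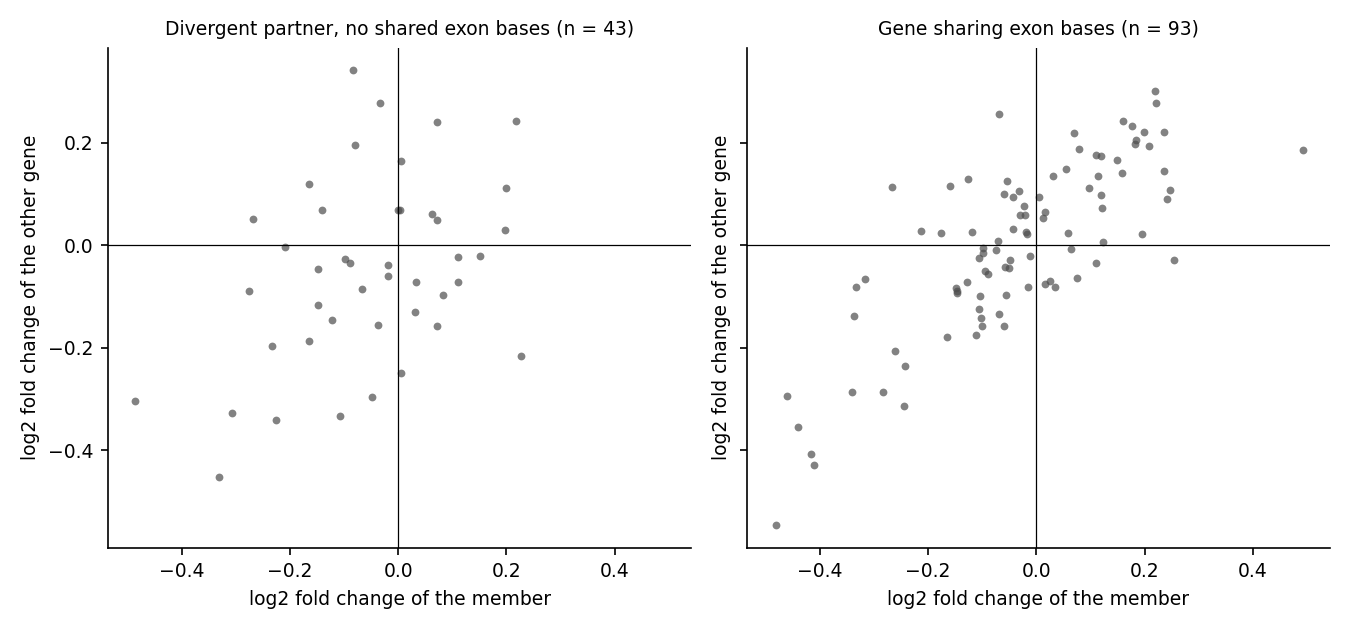
Log2 fold change of a member (horizontal axis) against that of its divergent partner without shared exon bases (left, 43 pairs) or of the gene that shares most of its exon bases (right, 93 pairs). Points follow the diagonal more closely on the right, where both genes can hold the same reads.

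The GC content of the transcript went with the change, in members as in other genes. Over the 383 members with a GC value the rank correlation of GC content with the log2 fold change was 0.346, and over 14003 tested genes it was 0.345. In the lowest GC tertile of members 84.4% lay below 0, in the middle one 75.6% and in the highest 50.8%. Other tested genes in the same GC ranges lay below 0 in 60.5%, 46.4% and 29.3%. Taken library by library, genes deviated from their 6-library mean along GC content, with a rank correlation of -0.294 to -0.216 in Control and -0.0706 to 0.446 in Middle, with the highest in Middle replicate 1. The ranges do not overlap, but the deviations share a mean, so the strong trend of Middle replicate 1 also shifts the values of the other libraries. The trend of libraries with GC content and the group cannot be told apart here. With the trend of each library removed, the median of the members was -0.09 and 264 of 383 lay below 0, while the median of all genes was 0.02. Of the 12 lower members with the smallest p, 1700018B08Rik then went from -0.33 to -0.42 and 1700049L16Rik from -0.33 to -0.35 (log2 fold change). The changes of the rest of these 12 shrank in size, that of 1700083H02Rik from -0.63 to -0.55.

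**Figure D5:**
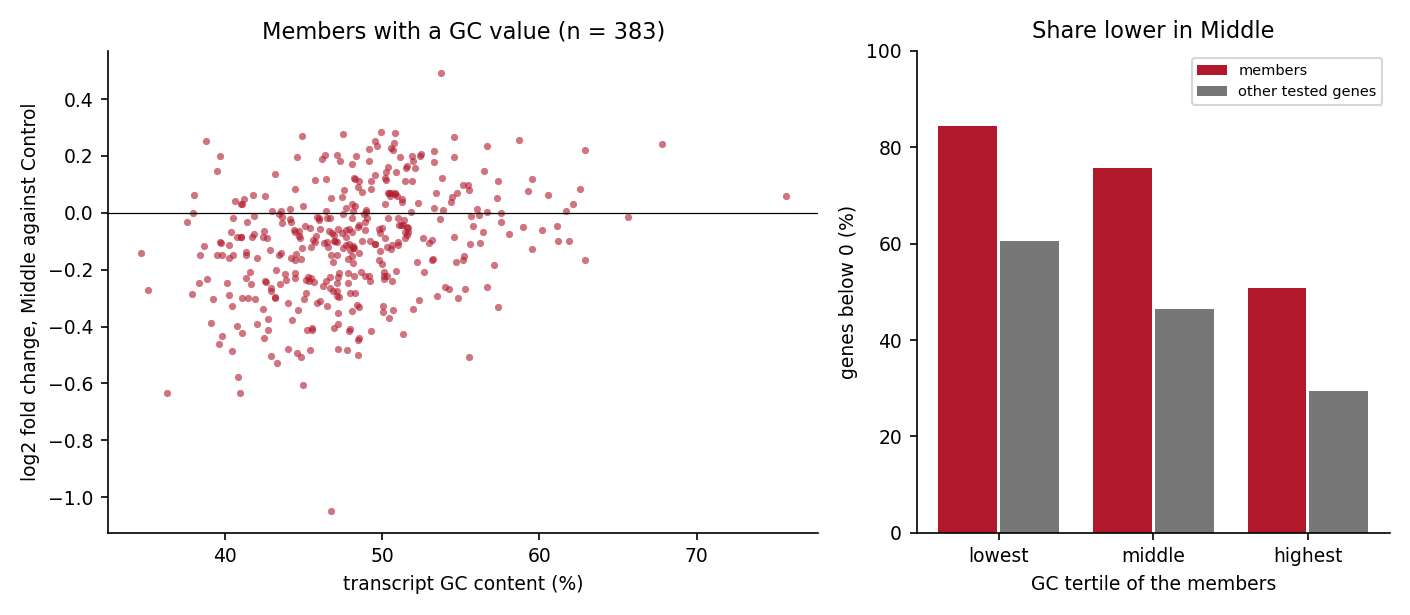
Left, GC content of the transcript (horizontal axis, %) against log2 fold change of each of 383 members. Right, share of genes below 0 (%, bars from 0) in the GC tertiles of the members and in other tested genes of the same GC range, with members higher than other genes in each tertile.

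Most spermatid markers lay lower beside the members, and most markers of somatic cells lay higher. Of 14 elongating spermatid markers 12 lay below 0 (median -0.13, summed level 30896 to 34030 RPKM in Control and 29089 to 31554 in Middle), and of 14 round spermatid markers 10 (median -0.08, 753.4 to 777.7 and 699.6 to 741.1). Of 10 markers of pachytene and later spermatocytes 7 lay above 0 (median 0.19), though their summed level was 2311 to 2327 RPKM in Control and 2277 to 2316 in Middle. Of 8 tested Sertoli markers 7 lay above 0 (median 0.16, 212 to 218 and 225 to 242). All 7 peritubular markers lay above 0 (median 0.24, 91.6 to 103 and 111 to 137), as did the 4 tested of 10 spermatogonium markers (median 0.25, 26.5 to 32.8 and 32.8 to 41.0) and the 4 tested of 6 macrophage markers (median 0.08, 11.6 to 14.7 and 12.6 to 15.7). Of 8 tested Leydig markers 5 lay above 0 (median 0.12, 273.8 to 329.4 and 303.3 to 336.4), and of 9 tested early meiotic markers 4 (median -0.05, 326.2 to 340.0 and 254.3 to 328.7). All 12 ribosomal protein genes lay above 0 too (median 0.29, 1174 to 1259 and 1335 to 1719), as did the 7 tested of 10 genes of the mitochondrial genome (median 0.45, 6432 to 8007 and 9029 to 12220). These lists were meant as rough signs of RNA quality, of which no direct measure was used here. No marker passed the test, and the part of cell makeup or RNA quality in the lower members was not tested.

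At the threshold that chose the members, the 3 just inside it were 1700063O14Rik (0.91 ± 0.22 RPKM in Control and 1.09 ± 0.43 in Middle), 1700007E05Rik (1.12 ± 0.15 and 0.94 ± 0.48) and 1700047N06Rik (0.89 ± 0.31 and 1.23 ± 0.12; SD, n = 3 each). The 3 just outside were 1700086O06Rik (0.91 ± 0.05 and 1.06 ± 0.13 RPKM), 1700021P04Rik (1.21 ± 0.43 and 0.74 ± 0.17) and 1700065O20Rik (1.03 ± 0.15 and 0.91 ± 0.15; SD, n = 3 each). Of the genes under the threshold, 9 were tested because 1 group reached a mean of 1 RPKM, and they are not counted among the members.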

How the data were processed

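RNA-seq libraries of mouse testis were analysed from the deposited table, which gives RPKM values that the authors had computed per gene and library, with GRCm39 coordinates and exon lists per the file headers. The read trimmer was fastp 0.23.0, per the submitters' processing notes. The sources used here do not give the aligner, counting tool or strand setting. Multiplied by gene length, all values were whole multiples of 1 step per library (tolerance 0.001), so reads were recovered and a single read per kilobase was worth 0.0171 to 0.0258 RPKM.

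Values were taken as log2(RPKM + 1), which understates the change of low genes. The 15040 genes whose Control or Middle mean reached 1 RPKM were tested two-sided for a difference between Middle and Control by limma-trend (limma 3.58.1 in R 4.3.3). P-values were adjusted by Benjamini-Hochberg over these genes, with a threshold of 0.05. All 399 members met this filter by their rule. On simulated data for this comparison (15040 genes) the test recovered 92% of 100 genes changed by 1 and 99% of 100 changed by 2 on the log2 scale. The changed genes were drawn only from genes above about 5 RPKM, and 238 of the 399 members had a mean of at least 5 RPKM. Neither changes of lower genes nor smaller changes, such as the median of -0.09 of the members or the -0.63 of 1700083H02Rik, were simulated. These rates therefore do not show how often such changes would be called. Members, lists and rules were chosen with earlier results of these data known. Members are named if they were among the 12 lower or 12 higher with the smallest p, the 8 most abundant, or the 3 on each side of the threshold of level. Gene types came from RefSeq by symbol or synonym (318 members) and from GENCODE M21 by symbol (69), and GC content and similarity of transcripts (BLAST 2.17.0, at least 90% over 50% of the length) from GENCODE M21, with none of its coordinates. Replicate numbers are not said to pair the libraries, and the main fit used no pairing. The correlation of deviations between libraries of the same number was -0.153, -0.119 and 0.005, which cannot settle the question with 3 libraries per group.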

Additional observations from a re-analysis of the deposited data

How the results depend on the processing

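The median of the members stayed below 0 in each alternative run (pseudocounts of 0.1 and 0.01, no filter, filters on the mean over all libraries of 1 and 5 RPKM, scaling by upper quartile or by median of ratios, recovered reads with limma-voom, the GC trend removed, a replicate block, each library left out, and members without exon overlap, protein-coding or non-coding only), from -0.13 to -0.05, and 0 members were called in each. Members below 0 numbered 263 to 297 wherever at least 398 were in the fit, and 164 of 238 at a mean of 5 RPKM or more. Leaving out 1 library moved the count of all genes called from 8 to between 0 and 3 (3 if Control replicate 1 was omitted, 1 if Middle replicate 1 was, and 0 for any other library). It moved the members higher at an unadjusted p under 0.05 from 18 to between 12 and 34, with 34 without Middle replicate 2, and the cause was not tested. All genes called numbered 0 with no filter and 0 with the replicate block, which changed no call of a member (12 higher and 79 lower at an unadjusted p under 0.05). With a library left out, the log2 fold change of 1700010I14Rik ran from -0.0322 to 0.013, that of 1700003F12Rik from -0.13 to 0.048 and that of 1700007E05Rik from -0.2995 to 0.062. The wording for members under 2 RPKM is limited by depth, as the lowest held 10 reads in a library.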

Other observations

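Members that varied most within a group were few. 1700013M08Rik, a non-coding gene on chromosome 5 (102622156 to 102631155), was at 6.47, 6.85 and 1.22 RPKM in Control and at 0.40, 4.11 and 1.05 in Middle. In each group some libraries were well above the others, and its log2 fold change of -1.05 had an SE of 0.59, the widest of all members. The median coefficient of variation of a member was 9.30% in Control and 10.2% in Middle, and 4 members exceeded 50% in either group.

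On the X chromosome the median change (log2) was -0.28 for 9 members, 7 of them below 0, and -0.02 for all 491 tested genes there. On chromosome 16 it was -0.27 for 15 members, 13 of them below 0, and 0.02 for all 462 tested genes there. The chromosomes were picked after the values were seen, and no test compared them. Median GC content was 43.6% for the X members and 45.7% for all tested genes on X. On chromosome 16 it was 47.2% for members and 48.3% for all tested genes. Members in the lowest GC tertile had a median change of -0.16 on any chromosome, and the part of GC content here was not tested. The X-linked members include the copies 1700084M14Rik and 1700003E24Rik. Another, 1700010D01Rik, was at 166, 147.2 and 171.1 RPKM in Control and at 129.4, 136.3 and 130.9 in Middle, and its transcript matches that of Gm5941 at 97.6%, so its reads are uncertain.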
